A study of Mus musculus with 6 samples.

Results

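The genes of sterol synthesis and cholesterol handling were followed in hippocampus of mice without Prmt9, an arginine methyltransferase whose known substrate is the splicing factor SF3B2. The set holds 29 genes of the 36008 in the gene table, listed by symbol along the pathway. Of these, 18 encode enzymes of synthesis, 4 encode regulators and 7 encode proteins of cholesterol transport, uptake, esterification and turnover. The series compared 3 WT and 3 Prmt9 KO mice, all female, of strain B6J and 2 weeks old, by stranded poly(A)+ RNA-seq of whole hippocampus. In the KO line the floxed exon 5 of Prmt9 was deleted in the germline with CMV-Cre, so every cell type of the tissue lacked the exon and the mice are a whole-body model. Each mouse gave 1 library, numbered 1 to 3 within its genotype. All 29 genes were found in every library, with 178 annotated transcripts among the 118783 of the transcript files. Per the study's methods the WT mice were littermates of KO mice, but which mice shared a litter, and the day on which each was processed, is not given in the sources used here.

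The brain makes nearly all of its own cholesterol, because lipoproteins of the blood do not cross the blood-brain barrier. Acetyl-CoA is turned into mevalonate and isoprenoids, farnesyl units are joined to squalene, squalene is closed to lanosterol, and lanosterol is trimmed, reduced and isomerised to cholesterol. The transcription factor SREBP2, escorted by SCAP and held back by INSIG proteins when sterols are plentiful, drives the genes of this pathway together. Demand is high in the postnatal weeks, when oligodendrocytes build myelin and neurons form synapses, and astrocytes pass cholesterol to other cells on APOE particles that ABCA1 loads with lipid.

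Prmt9 itself was lower in every KO mouse. Its level, in TPM (an abundance scaled to transcript length and to the size of the library), was 11.8, 15.3 and 14.96 in WT mice 1 to 3 and 3.93, 4.61 and 4.67 in KO mice 1 to 3. The log2 fold change was -1.71 ± 0.10 (SE), with an adjusted p of 0.0327 in edgeR's quasi-likelihood test over all genes. The libraries held 194098391 to 286771677 estimated counts. All 10 markers of hippocampal pyramidal and granule neurons were present in every mouse, with a summed level of 2148 to 3661 TPM in WT and 2297 to 3588 TPM in KO mice. Both libraries numbered 1 stood apart from the other 4: on the first principal component of the log2-scaled counts, which held 79.5% of the variance, they lay at 55.12 (WT) and 37.71 (KO), and the others between -25.66 and -19.95. In WT mouse 1, 37.4% of transcripts had no count, against 22.8 to 24.8% in the other mice. In TPM, 22 of the 29 sterol genes had both mice numbered 1 on one side of all other mice, 12 above and 10 below. Of all genes 64.8% did so, and of those with a mean of at least 10 TPM 74.9%. What sets these libraries apart is not given in the labels, so the enzymes as a group, and the genes whose values are given in every mouse, are also described within same-numbered mice or in mice 2 and 3 alone where that alters the picture. The fits without mice 1 were chosen after the data had been seen. No label makes same-numbered mice pairs, and numbers 2 and 3 could not be told apart.

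Levels along the pathway spanned a wide range, and in TPM no gene of the set separated the genotypes. Mean TPM over the 6 mice ran from 10.6 for Stard4, a carrier of cholesterol between membranes, to 4101 for Apoe, the lipoprotein of the brain. Among the 18 synthesis enzymes it ran from 13.6 for Hsd17b7 to 215.9 for Hmgcs1. The TPM of WT and KO mice overlapped for all 29 genes, where 6.67% of all genes tested did not overlap. A gene was called when its adjusted p was under 0.01 and its fold over 1.5: edgeR called 0 of the 29 genes, and 0.0% of all 20315 genes tested. Prmt9 itself, with an adjusted p of 0.0327 in edgeR, was not called at this limit. The lack of a call therefore does not show that a level was unchanged. The unadjusted p was below 0.05 for 1 of the 29, Abca1, against 1.24% of all genes. With counts scaled for transcript length it was below 0.05 for 1 as well, but this was Ebp, which was lower in KO (unadjusted p of 0.0328, edgeR), and Abca1 had 0.173. DESeq2 called 0 of the 29 genes as well, against 0.0106% of the genes it tested, with 0 at an unadjusted p below 0.05, against 1.86%.

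**Figure D1:**
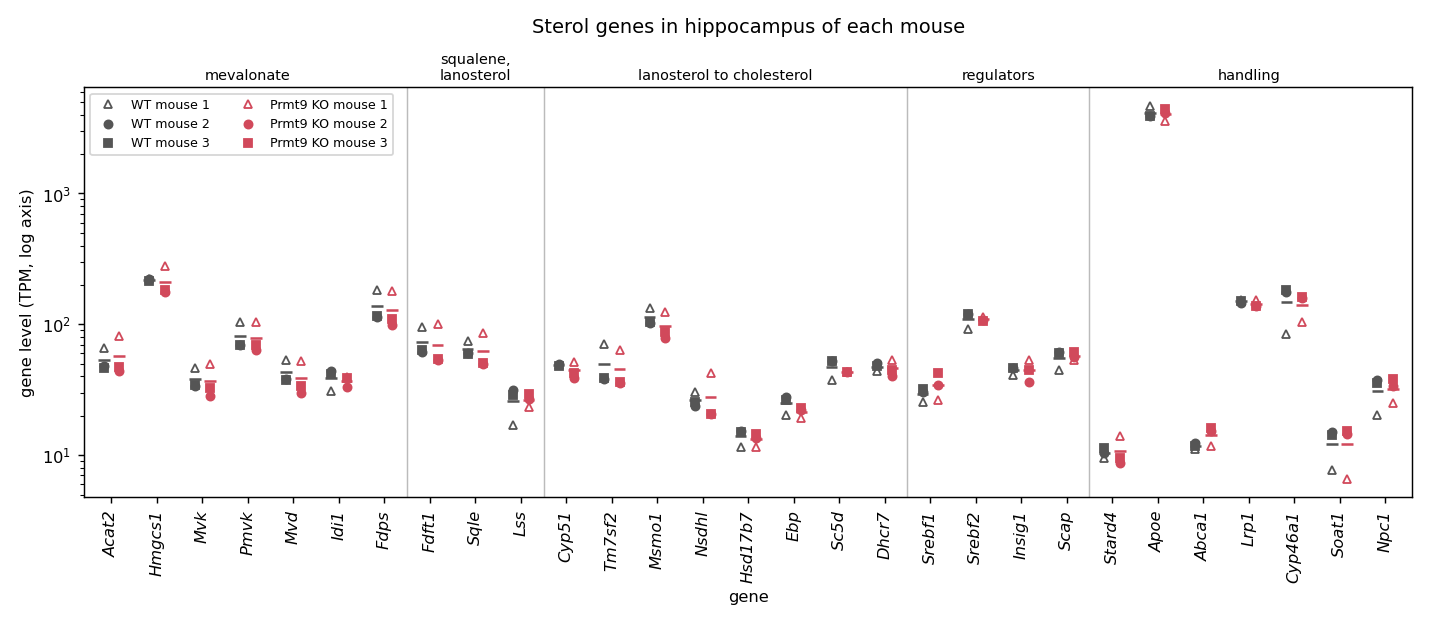
Gene level in TPM (log axis) of the 29 genes in each mouse, ordered along the pathway, with WT in grey and Prmt9 KO in red, mice numbered 1 as open triangles, mice 2 as circles, mice 3 as squares, and horizontal lines for the mean of 3 mice. The genotypes overlap for every gene, and the open triangles lie away from the filled symbols for 22 of the 29.

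The 7 enzymes that make farnesyl units gave log2 fold changes, KO against WT, with a median of -0.14 in edgeR's fit of genotype to all 6 mice, and 6 of the 7 were below 0. Hmgcs1, the synthase that makes HMG-CoA, was the most abundant enzyme of the set (ENSMUSG00000093930, chromosome 13, positions 119690379 to 119708260 of the forward strand, GRCm38). Its TPM was 223.5, 223.2 and 213.4 in WT and 278.3, 175.3 and 181.8 in KO mice 1 to 3. KO mouse 1 was the highest of all mice, and the other KO mice were the lowest. Its log2 fold change was -0.14 ± 0.27 (SE), with an adjusted p of 0.9999 in edgeR. Within mice 2 and 3, its TPM in KO was 81.8% of WT, and in mice 1 it was 124.5%. In TPM, 28.9% of all genes tested were lower in KO mouse 1 than in WT mouse 1. In CPM, counts scaled to the size of each library, the log2 differences of Hmgcs1 between same-numbered mice were 0.08, -0.36 and -0.24.

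Mvd, which decarboxylates mevalonate diphosphate, had the largest edgeR fold change of this stretch over the 6 mice (chromosome 8, positions 122433601 to 122443422, reverse strand). Its TPM was 53.3, 38.2 and 37.3 in WT and 52.6, 29.7 and 34.0 in KO mice. In mice 2 and 3 both KO values lay below both WT values, while KO mouse 1 was at 98.7% of WT mouse 1. On the log2 CPM scale every KO mouse was below the WT mouse of its number, with differences of -0.24, -0.36 and -0.14. Over all 6 mice its log2 fold change was -0.24 ± 0.35 (SE), with an adjusted p of 0.9999 in edgeR, and in mice 2 and 3 alone it was again -0.24, while Hmgcs1 had -0.29 and Idi1 -0.28. The other genes here were the thiolase Acat2, at a mean of 53.6 TPM in WT and 57.5 in KO, the mevalonate kinase Mvk (38.1 and 36.8), the phosphomevalonate kinase Pmvk (81.0 and 79.1), the isomerase Idi1 (38.9 and 37.2) and the farnesyl diphosphate synthase Fdps (138.2 and 129.8). Their edgeR log2 fold changes lay between -0.20 for Fdps and 0.02 for Acat2.

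The 3 enzymes that lead from farnesyl units to lanosterol were Fdft1, Sqle and Lss. Fdft1, squalene synthase, commits farnesyl units to sterols (chromosome 14, positions 63145150 to 63179578, reverse strand). Its TPM was 95.8, 61.7 and 63.6 in WT and 100.2, 53.0 and 54.8 in KO mice. Again both KO mice of numbers 2 and 3 lay below their WT counterparts, and both mice numbered 1 lay far above them all. In CPM the order within mice 1 turned, and every KO mouse was below the WT mouse of its number, by log2 differences of -0.20, -0.24 and -0.28. With the replicate number as a block the unadjusted p was 0.00467, with an adjusted p of 0.79 in edgeR. Over all 6 mice the log2 fold change of Fdft1 was -0.23 ± 0.43 (SE), with an adjusted p of 0.9999 in edgeR. Sqle, the epoxidase that follows, had a log2 fold change of -0.13 ± 0.32 (SE), and Lss, which closes the ring to lanosterol, had 0.03 ± 0.13 (SE).

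All 8 enzymes between lanosterol and cholesterol had an edgeR log2 fold change below 0, though only just so for Nsdhl, with a median of -0.17. Msmo1, the oxidase that removes the methyl groups of the fourth carbon, had the largest difference of all 18 enzymes (ENSMUSG00000031604, chromosome 8, positions 64718139 to 64733792, reverse strand). Its TPM was 132.7, 102.4 and 104.6 in WT and 124.6, 78.5 and 87.2 in KO mice. Every KO mouse was below the WT mouse of its number, at 93.9% in mice 1 and 80.0% of the mean in mice 2 and 3, but KO mouse 1 was above WT mice 2 and 3. In CPM, counts scaled by edgeR to the size of each library, the differences of the same-numbered mice were close together, at -0.34, -0.39 and -0.30 on the log2 scale. edgeR's log2 fold change over all mice was -0.34 ± 0.30 (SE), with an adjusted p of 0.9999. Without WT mouse 1 it was -0.04, and without KO mouse 1 it was -0.63.

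Ebp, the sterol isomerase, was the enzyme with the smallest unadjusted p (0.0797, edgeR, adjusted p of 0.9999). Its CPM was 19.1, 21.2 and 19.5 in WT and 16.9, 17.6 and 17.4 in KO mice, so the genotypes did not overlap on this scale. The same held in CPM for Hsd17b7, a ketoreductase, whose log2 fold change was -0.11 ± 0.10 (SE). On the TPM scale both overlapped, and mice 1 had the lowest TPM of these genes in each genotype. The share of all genes without overlap in CPM was not counted, so this separation does not set Ebp and Hsd17b7 apart from other genes. The other lanosterol-end enzymes had means in WT and KO of 48.9 and 44.4 TPM for the demethylase Cyp51, 49.4 and 45.2 for the reductase Tm7sf2, 26.5 and 27.9 for the decarboxylating dehydrogenase Nsdhl, 47.2 and 43.2 for the desaturase Sc5d, and 47.6 and 46.3 for Dhcr7, which reduces dehydrocholesterol.

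Among the 18 synthesis enzymes the direction was mostly lower in KO mice, by small amounts, and how firmly it showed depended on the mice numbered 1. In the fit of genotype to all 6 mice, 16 of 18 enzymes had a log2 fold change below 0, with a median of -0.14, where 53.1% of all genes were below 0 with a median of -0.01. Without WT mouse 1, 8 of 18 were below 0 and the median was 0.07. Without KO mouse 1 the median was -0.45, without KO mouse 2 it was -0.02, and without KO mouse 3 it was -0.05. Without WT mouse 2 it was -0.22 and without WT mouse 3 it was -0.24. Between same-numbered mice, the median log2 difference in CPM was -0.11, -0.24 and -0.15 for numbers 1, 2 and 3, and 11, 18 and 16 of the 18 enzymes were lower in the KO mouse. Over all genes, 48.9%, 50.5% and 52.2% were lower in the KO mouse of these pairs. In TPM the count was 18 and 16 for mice 2 and 3, against 51.9% and 49.4% of all genes. For mice 1 it was 5 of 18, namely Mvd, Fdps, Tm7sf2, Msmo1 and Ebp, against 28.9% of all genes. In mice 1 these 5 were lower on both scales, while Mvk, Pmvk, Fdft1, Sqle, Cyp51 and Hsd17b7 were lower in CPM alone. The direction of some enzymes in mice 1 thus turned with the scale.

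**Figure D2:**
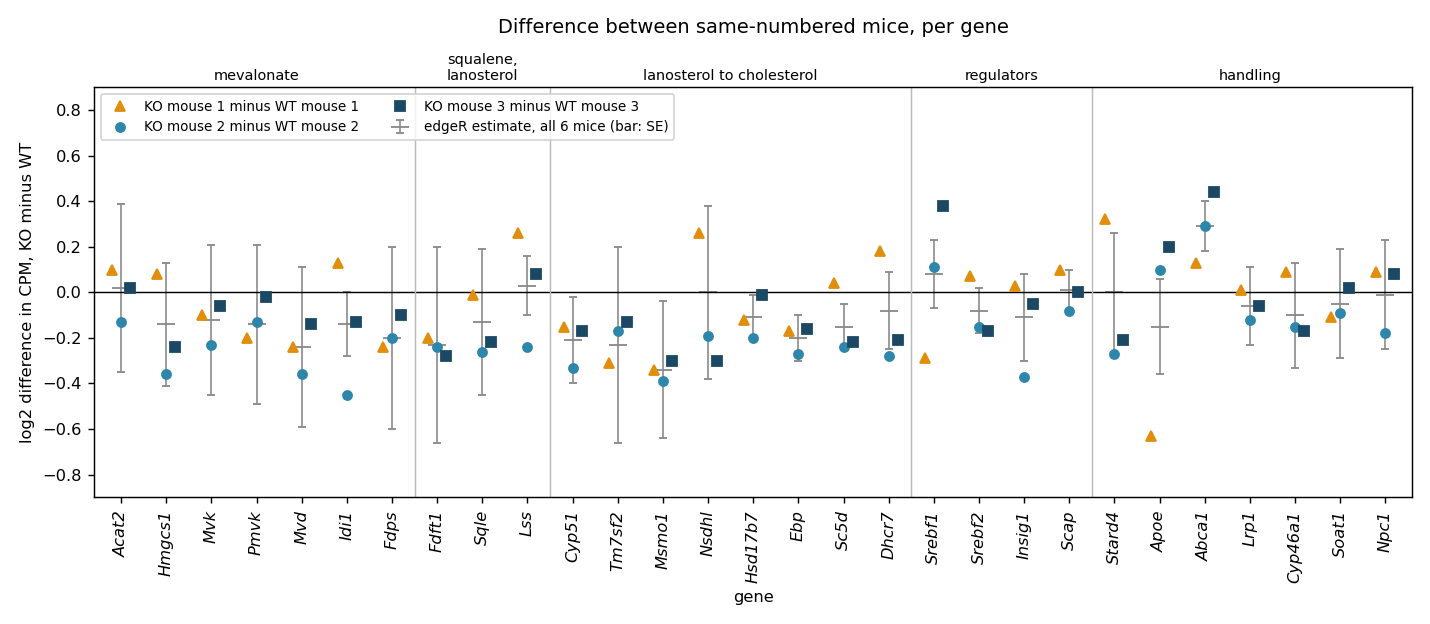
Log2 difference in CPM between the KO and the WT mouse of the same number for each gene (triangles for mice 1, circles for mice 2, squares for mice 3), with edgeR's log2 fold change over all 6 mice and its SE as grey bars. Nearly all enzyme points of mice 2 and 3 lie below 0, with medians of -0.24 and -0.15, whereas those of mice 1 lie on both sides with a median of -0.11, and Abca1 lies above 0 in all 3 pairs.

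With the replicate number as a block in edgeR, 8 of the 29 genes had an unadjusted p below 0.05, against 5.75% of all genes. They were Abca1, which was higher in KO, and 7 of the 18 enzymes, which were lower, namely Cyp51, Mvd, Fdft1, Tm7sf2, Ebp, Msmo1 and Fdps. Over all genes, 3.17% were lower at this limit, and 4.59% of the genes with a mean of at least 10 TPM. The enzymes are driven together by SREBP2, so here and below their counts are not counts of separate observations. They were also chosen with earlier results of these data known, and the difference from all genes was not tested. After adjustment 0 of the 29 were called, against 0.0% of all genes: the smallest unadjusted p among the enzymes, for Msmo1, was 0.000997, with an adjusted p of 0.79. A term for the mice numbered 1 alone gave 8 of 18, with Sqle added, against 5.33% of all genes and 7.9% of those of at least 10 TPM, and called 0 of the 29 (0.00492% of all genes). In mice 2 and 3 alone, 19 of the 29 genes had an unadjusted p below 0.05, against 16.4% of all genes. Of the 18 enzymes, 13 were lower at this limit, against 8.6% of all genes and 12.9% of the genes of at least 10 TPM. Their smallest adjusted p was 0.1035, for Hmgcs1 and Fdft1, so edgeR called 0 of them in that fit too (0.00488% of all genes). In TPM, 16 of the 18 enzymes had both KO mice of numbers 2 and 3 below both WT mice, where 24.7% of all genes and 32.5% of those of at least 10 TPM did. KO levels in these mice ranged from 80.0% of WT for Msmo1 to 96.2% for Acat2, which, with Lss, was one of the 2 enzymes that overlapped. Both KO mice were above both WT mice for 3 of the 29 genes, Abca1, Apoe and Srebf1, where 23.6% of all genes were.

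**Figure D3:**
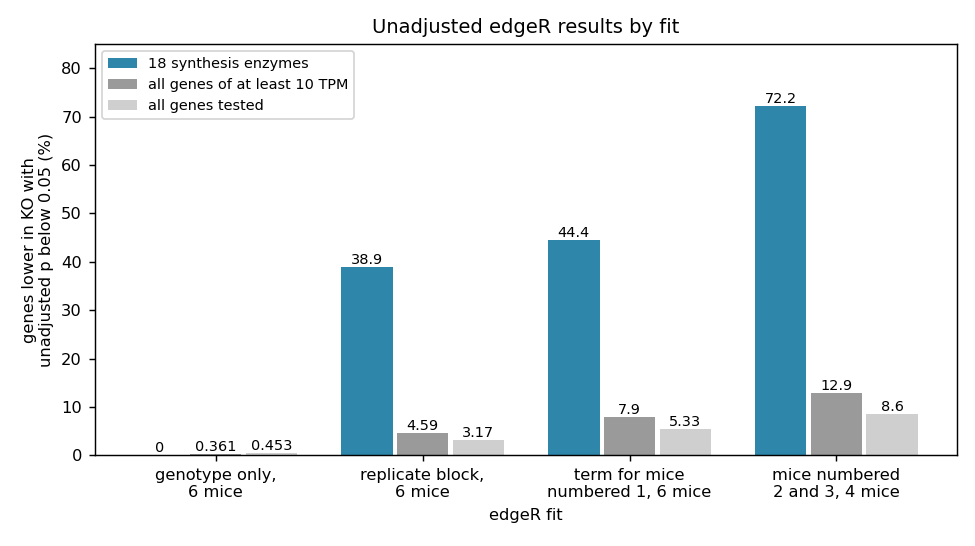
Share of genes (%) with an unadjusted edgeR p below 0.05 and a lower level in KO, for the 18 synthesis enzymes (blue), all genes with a mean of at least 10 TPM (dark grey) and all genes tested (light grey), in 4 fits. The share of the enzymes is 0% (0.361% and 0.453% of the genes) with genotype alone. It is 38.9%, 44.4% and 72.2% with the block, with the term for mice 1 and in mice 2 and 3. After adjustment 0 enzymes pass in any of these fits. The enzymes are regulated together and were chosen with earlier results of these data known, so they are not separate observations.

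Markers of other cell types differed among the same mice. The summed TPM of 10 oligodendrocyte markers, cells that make much cholesterol, was 2233, 12460 and 10820 in WT and 1172, 8518 and 11900 in KO mice. With the block, 7 of the 10 were lower at an unadjusted p below 0.05 in edgeR, against 3.17% of all genes. In mice 2 and 3 alone 1 was, against 8.6%. The 9 astrocyte markers summed to 1741, 2674 and 2731 in WT and 1856, 2882 and 2960 in KO mice, the 6 choroid plexus markers to 7271, 612 and 2009 in WT and 868, 2339 and 3348 in KO mice, and 3 blood genes to 1725, 2575 and 3860 in WT and 664, 2042 and 1233 in KO mice. All 3 blood genes were lower at this limit with the block and in mice 2 and 3. Over the 6 mice 1 of them was, against 0.453% of all genes. No marker of these lists was at 0 in any mouse, and edgeR called 0 of the markers. The part of these cells in the enzyme values was not tested. In a bulk sample, fewer cells of a type and less RNA per cell cannot be told apart.

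Short sequence motifs were looked for in the promoters of the set. Windows from 250 bases before to 50 after the start of a RefSeq gene (GRCm38.p6) were matched by symbol for 24 of the 29 genes, and were searched on both strands. The box CCAAT, bound by NF-Y, a usual partner of SREBPs, stood in at least 1 window of 14 of 15 matched enzymes. It did so for 19 of 24 genes of the set (79.2%), against 41.1% of all genes. The enzymes Fdps, Fdft1 and Sqle had no window. The SREBP site core TCACNCCAC was found at 1 of the 24 genes, Hmgcs1, against 1.44% of all genes, and the E-box CACGTG at 6 of the 24 against 8.09%. A match of letters is a description and not a shown binding site. The windows of Abca1, Acat2, Apoe, Lrp1 and Scap held no CCAAT, and the box was not tested against the direction of change. Given here are the stretch of Hmgcs1 that holds the SREBP core, and that of Msmo1, the enzyme with the largest difference. The third is that of Abca1, the gene with an unadjusted p below 0.05 over the 6 mice in edgeR. Each is printed along the gene's strand, ending before its start, with the SREBP core, the box CCAAT, which reads as ATTGG when it lies on the opposite strand, and the E-box in capitals.
Hmgcs1, chr13:119690101-119690325, forward strand: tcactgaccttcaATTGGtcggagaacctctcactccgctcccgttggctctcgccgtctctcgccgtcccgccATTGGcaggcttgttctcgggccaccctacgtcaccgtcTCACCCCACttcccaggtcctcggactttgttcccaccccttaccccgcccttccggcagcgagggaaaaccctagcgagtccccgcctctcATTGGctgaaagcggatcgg
Msmo1, chr8:64733614-64733753, reverse strand: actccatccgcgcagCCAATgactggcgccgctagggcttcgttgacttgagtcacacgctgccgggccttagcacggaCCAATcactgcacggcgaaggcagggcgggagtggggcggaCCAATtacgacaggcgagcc
Abca1, chr4:53160022-53160057, reverse strand: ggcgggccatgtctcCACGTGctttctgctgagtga
Counted from the start of the gene, with -1 the base before it, the Hmgcs1 core begins at -137, and its 3 boxes in this stretch begin at -237, -176 and -45. The 3 boxes of Msmo1 begin at -160, -96 and -55, and the E-box of Abca1 begins at -147.

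Of the 4 regulators, edgeR called 0, and 0 had an unadjusted p below 0.05 over the 6 mice. Srebf2, which encodes SREBP2, had 110.2 ± 15.9 TPM in WT and 109.3 ± 4.3 in KO mice (SD, n = 3 each), and its escort Scap had 55.6 ± 9.4 and 57.2 ± 4.0 (SD, n = 3 each). In mice 2 and 3 the TPM of Srebf2 was 119.2 and 119.4 in WT and 107.1 and 106.6 in KO. Its log2 fold change in these mice was -0.15 ± 0.03 (SE), with an adjusted p of 0.1422 in edgeR. In mice 1 its TPM in KO was at 124.5% of WT. On the log2 CPM scale its differences between same-numbered mice were 0.07, -0.15 and -0.17. Insig1, which retains SREBPs in the endoplasmic reticulum and is itself an SREBP target, had the largest difference in edgeR of the 4, a log2 fold change of -0.11 ± 0.19 (SE) with an adjusted p of 0.9999. Its TPM was 41.1, 46.5 and 46.3 in WT and 53.1, 36.6 and 44.7 in KO mice. KO mouse 1 was the highest and KO mouse 2 the lowest of all. Srebf1, whose product drives fatty acid synthesis, had 25.4, 30.2 and 31.9 TPM in WT and 26.3, 34.4 and 42.8 in KO mice, a log2 fold change of 0.08 ± 0.15 (SE). Its log2 fold change in mice 2 and 3 alone was 0.26 ± 0.09 (SE), with an adjusted p of 0.2432 in edgeR.

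Of the 7 genes of cholesterol handling, Abca1 was the one that was higher in KO mice on the CPM scale without overlap. The share of all genes that did so was not counted. ABCA1 exports cholesterol to apolipoproteins, and its gene (ENSMUSG00000015243) lies at positions 53030787 to 53159895 on the reverse strand of chromosome 4. Its CPM was 56.5, 58.0 and 57.6 in WT and 61.9, 70.9 and 78.2 in KO mice. Its TPM was 11.2, 12.4 and 11.8 in WT and 11.8, 15.3 and 16.1 in KO mice. Every KO mouse was above the WT mouse of its number, by 0.13, 0.29 and 0.44 on the log2 CPM scale, and KO mouse 1 lay within the WT range in TPM. Over all mice the log2 fold change was 0.29 ± 0.11 (SE), with an unadjusted p of 0.0373 and an adjusted p of 0.9999 in edgeR. DESeq2 gave an unadjusted p of 0.0511. With the block the unadjusted p was 0.0105, with an adjusted p of 0.79 in edgeR. Leaving out WT mouse 1, 2 or 3, KO mouse 2 or KO mouse 3 gave unadjusted edgeR p-values of 0.0587, 0.0907, 0.0959, 0.098 and 0.132, and leaving out KO mouse 1 gave 0.00943.

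Apoe was the most abundant gene of the set, and its direction turned with the mice. Its TPM was 4666, 3880 and 3896 in WT and 3581, 4138 and 4448 in KO mice. WT mouse 1 was the highest and KO mouse 1 the lowest of all. The log2 fold change was -0.15 ± 0.21 (SE) over 6 mice and 0.15 ± 0.04 (SE) in mice 2 and 3 alone, where edgeR gave an adjusted p of 0.2052. In mice 2 and 3 the 9 astrocyte markers, whose cells express Apoe and Abca1, included 5 that were higher in KO and 1 that was lower at an unadjusted p below 0.05 in edgeR, against 7.82% and 8.6% of all genes. Their part in the Apoe and Abca1 values was not tested.

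At the low end, Stard4 had 9.44, 10.4 and 11.3 TPM in WT and 14.01, 8.79 and 9.60 in KO mice, so that KO mouse 1 was above all WT mice and KO mouse 2 below them. Soat1, which esterifies cholesterol for storage, had 7.66, 14.99 and 14.2 TPM in WT and 6.61, 14.5 and 15.2 in KO mice. Both mice numbered 1 had 0.485 times the mean of the others. Cyp46a1, the neuronal hydroxylase that clears cholesterol from the brain, was likewise at 0.558 times and had 147.7 ± 54.8 TPM in WT and 141.3 ± 31.7 in KO mice (SD, n = 3 each). The lysosomal exporter Npc1 had 31.2 ± 9.4 and 32.3 ± 6.5 TPM, and the uptake receptor Lrp1 had 149.8 ± 3.7 and 143.4 ± 9.5 TPM (SD, n = 3 each).

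Since the study asked about splicing, the annotated transcripts of the 29 genes were followed as well. The transcript with the highest mean TPM over the 6 mice was a protein-coding one for all 29 genes. For Apoe the means were close, at 1978 for the coding Apoe-209 and 1964 for Apoe-202, annotated as a processed transcript. In single mice the order could differ. In WT mouse 1 the retained-intron transcript Lrp1-208 had 79.2 TPM, against 48.5 for the coding Lrp1-201. In KO mouse 1 the order was the same, with 68.4 TPM for Lrp1-208 and 57.9 for Lrp1-201. Of the 178 transcripts, 155 passed the count filter. edgeR called 0 of them, against 0.0% of the 75661 tested, and 3 had an unadjusted p below 0.05, against 1.61%. DESeq2 called 0 of the transcripts of the set, against 0.113% of those it tested. These 3 were named after their values had been seen: Abca1-201, the coding transcript of Abca1, with a log2 fold change of 0.31 ± 0.11 (SE), and a retained-intron transcript each of Cyp46a1 and Cyp51. Cyp46a1-203 had 3.97, 5.80 and 6.24 TPM in WT and 1.94, 3.30 and 3.15 in KO mice. All KO mice were below all WT mice, with a log2 fold change of -0.98 ± 0.23 (SE), an unadjusted p of 0.00554 and an adjusted p of 1.0 in edgeR. DESeq2 gave it an adjusted p of 0.0259. The share of all transcripts without overlap in TPM was not counted, so this separation does not set Cyp46a1-203 apart from other transcripts. Cyp51-204 was scarce, with 0.639, 0.712 and 0.806 TPM in WT and 0.174, 0.426 and 0.198 in KO mice, a log2 fold change of -1.48 ± 0.48 (SE).

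Use of transcripts within a gene was called for 0 of the 29 genes by edgeR's Simes test, against 0.17% of the 13560 genes tested. The smallest unadjusted p of the 29 was 0.432, so 0 were below 0.05 (1.73% of all genes), and with the block edgeR called 0 as well, against 0.0959% of genes. The smallest p in mice 2 and 3 alone was 0.00944, for Tm7sf2, with an adjusted p of 0.2003 in edgeR, against 1.82% of genes called. The coding transcript Tm7sf2-201 held 0.669, 0.453 and 0.439 of the gene's TPM in WT and 0.640, 0.385 and 0.345 in KO mice, and both mice numbered 1 stood above the rest.

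Of the 76 transcript shares between 0.05 and 0.95 in 25 of the genes, 5 did not overlap between the genotypes (6.58%), against 9.83% over all genes. In mice 2 and 3 alone 35 did not overlap, where 42.3% of all shares did not. With 3 mice in each genotype, an exact permutation test cannot give a p below 0.1, which each of the 5 had. They came from 4 genes. In Ebp, the coding transcript Ebp-201 held 0.744, 0.814 and 0.774 of the gene's TPM in WT and 0.873, 0.877 and 0.826 in KO mice, and the retained-intron transcript Ebp-204 held 0.073, 0.074 and 0.108 in WT and 0.016, 0.048 and 0.066 in KO mice. Every KO mouse was thus above every WT mouse for Ebp-201 and below every WT mouse for Ebp-204. The mean differences were 0.081 for Ebp-201 and -0.0417 for Ebp-204. All retained-intron transcripts of Ebp together held 25.1, 16.2 and 22.6% of its TPM in WT mice. In KO mice they held 11.2, 12.3 and 17.4%, so for their sum the genotypes overlapped. Computed from estimated counts in place of TPM, the difference of Ebp-201 was 0.0413, that of Ebp-204 was -0.0153 and that of Lss-208 was -0.000984, and among the 5 shares only that of Acat2-201 still did not overlap. Acat2-201, the main coding transcript, held 0.728 ± 0.012 in WT and 0.767 ± 0.032 in KO mice (SD, n = 3 each), a difference of 0.0387 that became 0.02 without KO mouse 1. Cyp46a1-202, annotated as a target of nonsense-mediated decay, held 0.128 ± 0.020 in WT and 0.152 ± 0.006 in KO mice (SD, n = 3 each). Its difference of 0.0238 became 0.0124 without WT mouse 1 and 0.0117 from estimated counts. Lss-208, a short coding model, held 0.088 ± 0.021 in WT and 0.054 ± 0.009 in KO mice (SD, n = 3 each), a difference of -0.0335 that became -0.0217 without WT mouse 1 and -0.0166 in mice 2 and 3 alone.

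**Figure D4:**
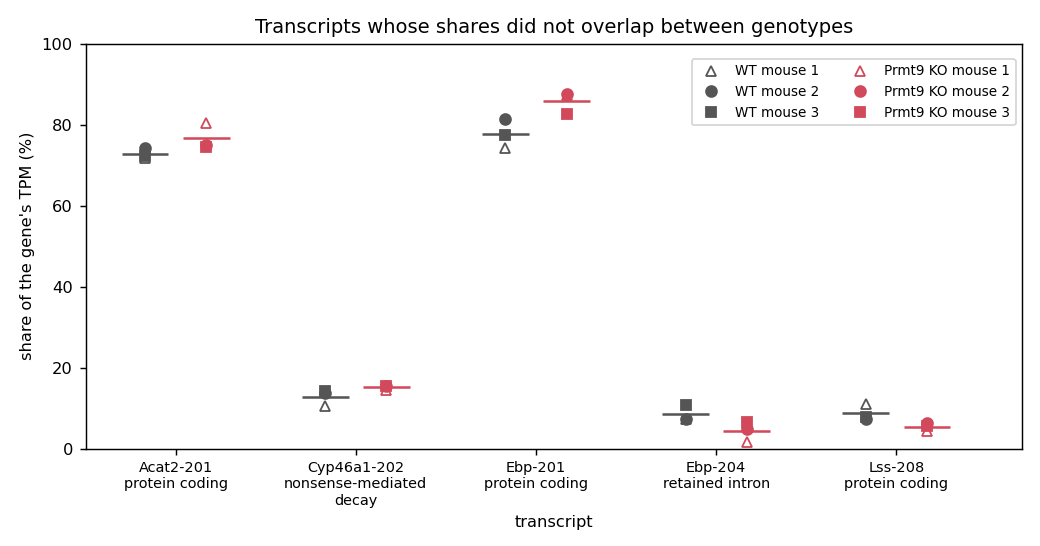
Share of the gene's TPM (%) held by the 5 transcripts whose shares did not overlap between WT (grey) and Prmt9 KO (red) mice, with open triangles for mice 1, circles for mice 2, squares for mice 3 and lines for means of 3 mice. The shares of Acat2-201, Cyp46a1-202 and Ebp-201 are higher and those of Ebp-204 and Lss-208 lower in every KO mouse than in every WT mouse.

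Transcripts annotated as retained introns made up a large share of some genes in both genotypes. In Lss they held 51.7 to 61.6% of the gene's TPM in WT and 54.7 to 65.3% in KO mice. In Npc1 they held 53.4% in WT mouse 1 and 52.6% in KO mouse 1, against 34.0 to 36.2% in the other mice, and in Lrp1 56.6% and 51.2% against 29.9 to 32.3%. Over the 29 genes the median was 1.51, 2.81 and 2.36% in WT and 2.35, 2.76 and 2.82% in KO mice.

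Neighbouring lists of lipid genes were counted by the same test. edgeR called 0 genes in each of 4 lists. Of 14 genes of mevalonate branches, oxysterols and bile acids, and of 11 genes of SREBP processing and sterol sensing, 0 had an unadjusted p below 0.05 in the fit of 6 mice, with the block or in mice 2 and 3. Of 17 genes of cholesterol transport, 0 were below it over 6 mice, 2 were lower with the block and 5 were lower in mice 2 and 3. Of 12 SREBP targets of fatty acid synthesis, 1 was lower over 6 mice, 4 with the block and 9 in mice 2 and 3, against 0.453%, 3.17% and 8.6% of all genes. The 1 was Acss2, an acetyl-CoA synthetase, with 55.5, 71.7 and 70.6 TPM in WT and 53.2, 63.9 and 65.3 in KO mice, a log2 fold change of -0.30 ± 0.09 (SE) and an adjusted p of 0.9999 in edgeR. In the same list the desaturase Fads1 had -0.19 ± 0.09 (SE). The median log2 fold change of the 12 genes was -0.12 over 6 mice and -0.15 in mice 2 and 3. As SREBP targets, these 12 genes are not separate observations either.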

How the data were processed

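Hippocampus of 3 WT and 3 Prmt9 KO mice was profiled, and the groups and mouse numbers were taken from the labels. The authors deposited expected counts (estimated counts) and TPM per transcript from kallisto (version 0.46.0 in the submitters' processing notes), and a table of TPM summed per gene. The builds named are GRCm38 and mm10, and the strand setting of the quantification is not given in the sources used here. Transcripts were joined to genes through GENCODE M21 (116622 of 118783 matched), and gene sums equalled the deposited gene table within 0.001 TPM for 27 of the 29 genes.

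Rounded counts were tested with edgeR 4.0.16 (TMM, filterByExpr, quasi-likelihood test, genotype only, Benjamini-Hochberg over all features), per gene, per transcript and, by diffSpliceDGE with Simes, for usage. Calls needed an adjusted p below 0.01 and a fold above 1.5 (usage: the adjusted p alone). A share is a transcript's TPM over its gene's, with the gene at 1 TPM or more in every mouse. Alternatives were DESeq2 1.42.0, limma 3.58.1 on log2(TPM + 1) and log2(TPM + 0.1), other scalings and filters, each mouse left out, a replicate block and a term for mice 1. Tests were tried on simulated data, where the usage test made more false calls than its limit allows. Deviations from the genotype means correlated at 0.784, 0.707 and 0.665 between same-numbered mice, and the numbers were treated as pairs. Deviations sum to 0 within a genotype, so mice 1 standing apart can by itself make those of mice 2 and 3 correlate. Numbers 2 and 3 were not told apart (0.642 and 0.716 across them), so their pairing rests on the numbers alone. No libraries were duplicates. Controls were same-sex littermates per the study's methods, with no map of mice to litters, so p-values measure the spread between these mice. The genes whose values are given in every mouse were set by rule: an unadjusted p below 0.05, the largest difference of each role, and the 2 highest and 2 lowest levels. Ebp and Srebf1 were added after their values had been seen. Members and lists were chosen with earlier results of these data known. Some further genes of the pathway were not analysed here.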

Additional observations from a re-analysis of the deposited data

How the results depend on the processing

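At the gene level 0 of the 29 were called in every setting run, which were changes of scaling and filter, DESeq2, limma, an adjusted p below 0.05 with no fold limit, the replicate block and leaving out mice. Transcript and usage calls were also 0 in the settings run for them, which did not include limma on TPM or the limit of 0.05. The block moved the genes at an unadjusted p below 0.05 from 1 to 8 and changed no call. The median log2 fold change of the 18 enzymes stayed between -0.16 and -0.09 with all mice, was -0.23 in mice 2 and 3 alone, and ran from -0.45 to 0.07 with 1 mouse left out. Non-overlapping shares numbered 1 from estimated counts, 3 at a mean share of at least 0.10 and 35 in mice 2 and 3 alone (42.3% of all shares), and 9 to 22 with 1 mouse left out, where fewer mice overlap less. The log2 fold change of 21 of the 29 genes changed sign in at least 1 setting, 13 of them without WT mouse 1, and none of these values was called. It became -0.003 with the replicate block and -0.0027 with the term for mice 1 for Acat2 and 0.00052 with that term for Npc1. With counts scaled for length it was -0.01 for Lss, -0.02 for Scap, 0.00016 for Stard4 and 0.0011 for Npc1. With no filter it was 0.0031 for Nsdhl and 0.0049 for Stard4. On log2(TPM + 1) it was 0.00029 for Nsdhl, 0.03 for Stard4 and 0.08 for Npc1, and the last 2 had the same values on log2(TPM + 0.1). In mice 2 and 3 alone it was -0.05 for Acat2, -0.07 for Lss, -0.03 for Scap and 0.15 for Apoe. With 1 mouse left out it ran as follows: Acat2 -0.39 to 0.37, Hmgcs1 -0.45 to 0.03, Mvk -0.45 to 0.2, Pmvk -0.45 to 0.25, Mvd -0.59 to 0.11, Fdps -0.58 to 0.25, Fdft1 -0.69 to 0.21, Sqle -0.5 to 0.14, Lss -0.06 to 0.11, Tm7sf2 -0.64 to 0.27. It also ran as follows: Nsdhl -0.5 to 0.26, Dhcr7 -0.28 to 0.03, Srebf1 -0.06 to 0.19, Insig1 -0.29 to 0.04, Scap -0.0086 to 0.03, Stard4 -0.33 to 0.16, Apoe -0.27 to 0.13, Lrp1 -0.19 to 0.05, Cyp46a1 -0.29 to 0.04, Soat1 -0.21 to 0.14, Npc1 -0.19 to 0.15. The causes were not tested. At the depths given, each of the 29 genes had at least 3552 estimated counts in every mouse. Of the 29 genes, 11 overlap a gene on the opposite strand and 4 one on the same strand, where reads could be split.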
